A study of Mus musculus with 5 samples.

Results

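The binding of NEUROD2 was examined at the loci of 9 genes for basic helix-loop-helix (bHLH) transcription factors of the neuronal lineage: Neurog1, Neurog2, Neurod1, Neurod2, Neurod4, Neurod6, Bhlhe22, Nhlh1 and Nhlh2. A locus was the span of the gene's longest transcript on the mm10 build together with 50 kb on either side, and a peak belonged to it when its midpoint lay inside. The data were ChIP-Seq peak lists from the dissected cerebral cortex of E14.5 BALB/c embryos, made with 3 antibodies against NEUROD2 that are called ab1, ab2 and ab3 here. Of these, ab1 is a mouse antibody, whereas the other two came from rabbits. Each antibody was used for 1 library from pooled embryos of several litters, against a GFP antibody of the same host species as control, so that ab2 and ab3 had their control library in common. The embryos carried no stated allele or treatment beyond the strain, there is only 1 condition, and no difference between groups could be tested. Of 94621 peaks in the 3 lists, 149 lay in the 9 loci: 72 of the 51841 peaks of ab1, 58 of the 35310 of ab2 and 19 of the 7470 of ab3. Overlapping peaks were merged, which gave 72 regions in the loci of 53833 in the genome. A region with peaks of at least 2 antibodies is called shared. Peak lists carry no expression values, so the tissue label was not checked against marker genes.

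bHLH proteins bind DNA as dimers at the E-box, a short palindromic element of the form CANNTG. In the developing cortex Neurog1 and Neurog2 encode the proneural factors, or neurogenins, which commit dividing progenitors to the glutamatergic neuronal fate. The NeuroD family, with Neurod1, Neurod2, Neurod4 and Neurod6, follows in intermediate progenitors and young neurons, where its members drive differentiation and share closely related DNA-binding domains. Bhlhe22 encodes a related repressor of cortical projection neurons, and Nhlh1 and Nhlh2 encode small bHLH proteins that mark newly born neurons. Neurod2 is the factor that was precipitated, so its own locus is a member as well.

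For each gene a leading region was chosen as the one with peaks of the most antibodies, with ties settled by the highest sum of peak scores. The sequence around the extended E-box closest to its midpoint is shown for all 9 genes, by its distance from the midpoint of the merged region, which need not be the centre of each antibody's peak. The core of an extended E-box is CAGATG (or its reverse complement, which reads CATCTG), the palindrome CAGCTG, or the palindrome CATATG. On at least 1 strand the core must be followed by G or by T, and both strands were searched. The 27 bases were read from the GRCm38 (mm10) assembly of NCBI RefSeq in the direction in which the motif is met, and the capitals mark the motif.
Neurog1, chr13:56283408-56283434, reverse strand: ctttagtgagCAGCTGGtggaaaccat
Neurog2, chr3:127626092-127626118, forward strand: ccacccaggcCATATGGttcactctgt
Neurod1, chr2:79456970-79456996, forward strand: gaaagtggccCATCTGTcgccagttag
Neurod2, chr11:98319396-98319422, forward strand: attcggcacaCAGATGTcctgccttca
Neurod4, chr10:130263292-130263318, forward strand: cctggccctcCATCTGTttgcatgtgt
Neurod6, chr6:55681500-55681526, forward strand: cctcctggtgCATCTGGgtaccaggga
Bhlhe22, chr3:18054144-18054170, reverse strand: cagcttagcgCATATGTttgcaaggcg
Nhlh1, chr1:172061205-172061231, forward strand: tgtgtcagccCAGCTGGaagtgtcccc
Nhlh2, chr3:102024973-102024999, forward strand: gagaatgaccCAGATGTgatgtctagt

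In this single element, the core CAGCTG is seen at Neurog1 and Nhlh1, CATATG at Neurog2 and Bhlhe22, and CAGATG, which reads CATCTG on the opposite strand, at the other 5. Most leading regions held further elements with other cores, and 8 of the 9, all but that of Neurog2, held CAGATG somewhere in their length. No such share was taken over whole regions of the genome, so this count describes the leading regions only. The element shown lay 16 bp upstream of the transcription start site (TSS) of Bhlhe22, 232 bp upstream at Neurod1 and 250 bp upstream at Neurod6, but 31259 bp upstream at Neurog1 and 16935 bp downstream at Neurod4. The letters are those of the C57BL/6J reference and not of BALB/c, and a match is a description of the sequence only.

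The leading regions of Neurod2 and Neurog1 lie outside annotated genes, and 300 bases of each are shown. Among the leading regions that overlap no untranslated exon, they had the highest sums of peak scores. The stretch is the one with the most extended E-boxes, chosen after the sequence was seen, and capitals mark the 6 letters of each core.
Neurod2, chr11:98321075-98321374, forward strand: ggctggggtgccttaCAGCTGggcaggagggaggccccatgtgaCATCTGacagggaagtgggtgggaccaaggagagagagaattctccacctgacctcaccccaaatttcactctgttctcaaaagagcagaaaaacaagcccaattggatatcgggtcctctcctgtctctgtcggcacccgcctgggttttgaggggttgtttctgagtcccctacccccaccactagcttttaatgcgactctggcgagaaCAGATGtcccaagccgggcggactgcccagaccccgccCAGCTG
Neurog1, chr13:56283400-56283699, forward strand: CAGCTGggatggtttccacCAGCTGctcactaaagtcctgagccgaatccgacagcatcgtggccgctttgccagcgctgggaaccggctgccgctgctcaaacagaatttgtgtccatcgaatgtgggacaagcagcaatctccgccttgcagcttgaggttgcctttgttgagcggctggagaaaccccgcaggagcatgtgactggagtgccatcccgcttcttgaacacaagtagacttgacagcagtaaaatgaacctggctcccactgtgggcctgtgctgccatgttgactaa

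The Neurod2 stretch holds 4 extended E-boxes and 7 elements of the general form CANNTG, and its midpoint lies 1998 bp from the midpoint of the region. In the Neurog1 stretch 2 extended E-boxes lie next to each other, both with the core CAGCTG, among 3 elements of the general form. The central 200 bp of either leading region held no extended E-box.

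NEUROD2 peaks were found at all 9 loci (see the map of regions by distance from the TSS). Of the 72 regions, 16 had peaks of all 3 antibodies, 37 had peaks of 2 and 19 had a peak of 1, which was ab1 in 17 and ab2 in 2. Thus each of the 53 shared regions contained ab1 and ab2, and ab3 joined them in 16 without a region of its own. All 3 antibodies met in 30.2% of the shared regions (exact binomial 95% interval, 18.3 to 44.3%, for counting error only), where 22.2% of the 32261 shared regions of the genome did so, a value inside that interval.

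**Figure D1:**
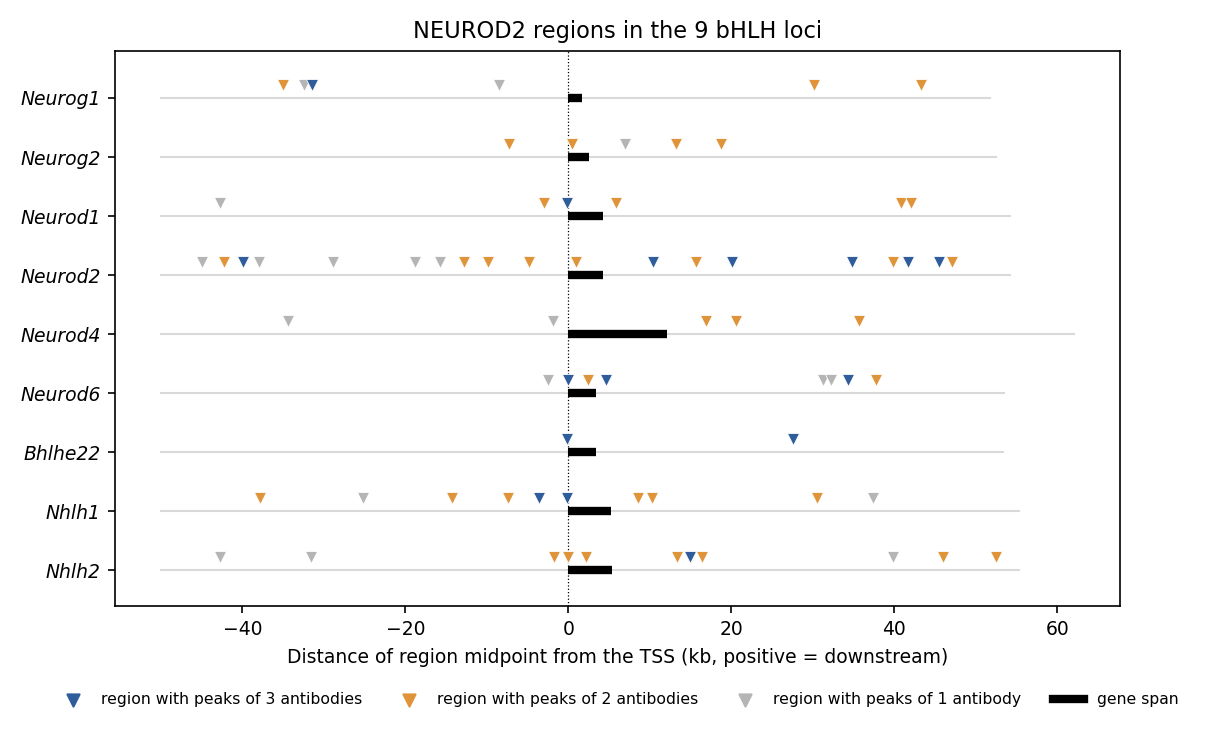
Regions in the 9 loci by the distance of their midpoint from the TSS in kb, positive in the direction of transcription. Triangles stand for regions with peaks of 1, 2 or 3 antibodies, black bars for the gene span and grey lines for the window. Neurod1, Neurod6, Bhlhe22 and Nhlh1 have a region of 3 antibodies at the TSS, and Neurod2 has 6 such regions, none of them at the TSS.

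Shared regions were present at 9 of 9 loci, and over all protein-coding genes the share with such a region was 67.6%. A region of all 3 antibodies was present at 7 of 9 loci, all but Neurog2 and Neurod4, where 26.7% of the 21938 protein-coding genes had one. Since the members are short genes, with spans of 1.69 to 12.1 kb, the share was also taken over the 8924 protein-coding genes that are no longer than the longest member and was 19.0% there. At the TSS itself, with a region midpoint within 1 kb, 7 of 9 members had a shared region, against 20.8% of protein-coding genes. A region of all 3 antibodies lay within 1 kb of the TSS at Neurod1, Neurod6, Bhlhe22 and Nhlh1, thus at 4 of 9 members, against 1.61% of protein-coding genes and 1.6% of the short ones. The counts of regions of all 3 antibodies rest on ab3 and its low scores. With peaks under a score of 100 left out, a region of all 3 antibodies was left at 3 of the 9 loci, against 14.1% of protein-coding genes, and within 1 kb of the TSS at 1, Neurod1, against 0.501%.

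The score of a peak is the −log10 of its MACS p-value multiplied by 10. Scores depend on the depth of each library and were not scaled between libraries, so values were compared only within 1 antibody. The exception is the sum of scores that settled ties between leading regions, which is dominated by ab1. By ab2 alone the region over the TSS would lead at Nhlh1 and the one 34.3 kb downstream at Neurod6. Scores pile up near 3100, with 730 peaks of ab1 and 76 of ab2 at or above it and a highest score of 3233 in both lists. This was read as a ceiling of the p-value, though some peaks exceed it, and the order of peaks at that level was taken as not resolved.

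At the neurogenin genes, as at the members together, most shared regions lay over 1 kb from the TSS. Over all members 86.8% did so, and 87.3% of all shared regions lay over 1 kb from a protein-coding TSS. The Neurog1 locus held 11 peaks in 6 regions, 4 of them shared, and none lay within 1 kb of its TSS. Its leading region, chr13:56283096-56284142, lay 31.5 kb upstream where ab1 scored 1949, ab2 1212 and ab3 174. This is the only region of all 3 antibodies at the 2 neurogenin genes. It is closer to the TSS of Cxcl14, a chemokine gene, at 12932 bp than to that of Neurog1. The other shared regions of this locus, at 35.0 kb upstream and at 30.1 and 43.2 kb downstream, had ab1 scores of 208 to 499 and ab2 scores of 62.3 to 238. The single peak nearest to the gene, 8505 bp upstream, came from ab2 with a score of 72.0.

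The Neurog2 locus held 9 peaks in 5 regions, none of them with ab3. A region at the TSS, chr3:127632223-127634917 with its midpoint 435 bp downstream, covered the gene's start and its intron with scores of 465 for ab1 and 172 for ab2. The leading region, chr3:127625190-127626554, was stronger with 959 for ab1 and 659.9 for ab2 and lay 7.26 kb upstream. Another pair of shared regions, 13.3 and 18.7 kb downstream, had ab1 scores of 109 and 120 and ab2 scores of 189 and 145. Neurog2 was the closest protein-coding gene for all 4 of its shared regions.

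The NeuroD genes held 80 of the 149 peaks, 27 of the 53 shared regions and 10 of the 16 regions of all 3 antibodies. At Neurod1 the leading region, chr2:79456388-79457511, lay at the TSS with its midpoint 199 bp upstream, where ab1 scored 2109, ab2 1200.05 and ab3 253. Its ab3 score exceeded 88.4% of the ab3 peaks in the genome, and no other region within 1 kb of a member's TSS had an ab3 score above 88.9. The TSS of the longest Cerkl transcript, a gene known for its part in photoreceptors, lies 34 bp from that of Neurod1 on the same strand, so a peak here cannot be given to either gene by distance, while all other Cerkl transcripts start farther downstream. The 4 other shared regions of the locus had ab1 scores of 165 to 504 and ab2 scores of 73.8 to 298, and ab3 had no peak in them. Of these, 3 lay in introns of Cerkl, from 5.88 to 42.0 kb downstream, and 1 lay 3.04 kb upstream in an exon of the noncoding gene Gm26755.

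Neurod2 had the most peaks of the 9 members, with 43 in 19 regions, of which 14 were shared and 6 had all 3 antibodies. The 14 shared regions covered 28.9 kb. The leading region, chr11:98316431-98322022, lay 10.4 kb downstream of the TSS and thus beyond the 3′ end of the gene, which spans 4.23 kb. It was the widest of the member regions at 5592 bp, and 10 of the 32261 shared regions of the genome were at least as wide. Both ab1 and ab2 reached 3100 there with 1 broad peak each, of 5592 and 5266 bp. The ab3 list resolved the same region into 3 peaks of 884, 1613 and 1654 bp with scores of 129, 282 and 171. The region contained 17 extended E-boxes, or 3.04 per kb, and the 3 ab3 peaks contained 4, 4 and 6 of them.

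Around the Neurod2 promoter, peaks were called with ab1 and ab2 but not with ab3. The region over the TSS and gene, chr11:98326652-98330784, had scores of 2022 for ab1 and 771 for ab2, and no ab3 peak. The next region upstream, chr11:98332950-98336055 at 4.86 kb, reached 3100 for ab1 and 793 for ab2, again with no ab3 peak. The 5 regions of all 3 antibodies besides the leading one lay at 20.1, 34.8, 41.7 and 45.4 kb downstream and at 39.9 kb upstream. Among them the one at 41.7 kb, chr11:98287249-98288662, scored 2661 with ab1, 1272 with ab2 and 274 with ab3, so its ab3 score was close to that of the leading region. The one at 34.8 kb, chr11:98294270-98295338, had 2005, 733 and 122 and held no extended E-box over its whole length. The upstream one lies within an intron of Stard3, a cholesterol-transport gene, and scored 1266, 549 and 64.2. For 10 of the 14 shared regions Neurod2 had the closest protein-coding TSS, and the other 4 were nearer to Ppp1r1b, Stard3 or Tcap.

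Neurod4 had the fewest peaks of the NeuroD loci, with 8 peaks in 5 regions, no ab3 peak and no region within 1 kb of its TSS. Its 3 shared regions all lay beyond the 3′ end of the gene. The leading one, chr10:130263054-130263744 at 16.8 kb downstream, scored 961 for ab1 and 462 for ab2, and those at 20.6 and 35.7 kb scored 221 and 315 for ab1 and 83.0 and 252 for ab2. The peak nearest to the TSS, 1936 bp upstream, was seen with ab1 alone at a score of 163.

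Neurod6, which is expressed in postmitotic projection neurons, had 17 peaks in 8 regions, 3 of them with all 3 antibodies. The leading region, chr6:55680709-55682033, was centred 108 bp upstream of the TSS where ab1 scored 2498, ab2 1232 and ab3 88.9. A region 34.3 kb downstream, chr6:55645491-55648466, had 2322, 1305 and 86.2, thus a higher ab2 score than the leading region and lower ab1 and ab3 scores. The third, 4.59 kb downstream and just past the gene's end, had 1111, 792 and 64.7. By contrast, the shared regions over the coding exon, at 2.41 kb, and at 37.7 kb had ab1 scores of 116 and 172. Neurod6 was the closest protein-coding gene of all 5 shared regions, and no shared region here had an extended E-box in its central 200 bp, although 4 of the 5 held the motif elsewhere.

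Bhlhe22 had the fewest regions, 2, and both had all 3 antibodies. The region over the TSS, chr3:18051904-18056133, was 4230 bp wide and scored 3199 with ab1, a level at which the order of peaks is not resolved, 1352 with ab2 and 79.9 with ab3. The other, chr3:18080851-18082567 at 27.5 kb downstream, lay in an intron of Cyp7b1, an oxysterol hydroxylase gene, and had 1872, 951 and 76.0. Thus ab1 and ab2 ranked both regions high, above at least 96.0% of the ab1 peaks and 94.5% of the ab2 peaks in the genome. In the ab3 list the same regions lay below its middle, above 43.1% and 39.1% of its peaks.

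The Nhlh genes had 42 peaks, 16 shared regions and 3 regions of all 3 antibodies, with 8 shared regions each. At Nhlh1 a region over the TSS, chr1:172056090-172059511, scored 1216 with ab1, 757 with ab2 and 55.1 with ab3 and held 11 extended E-boxes in 3422 bp. The leading region, chr1:172060436-172061934, lay 3.61 kb upstream and had 1924, 691 and 55.5. Both ab3 scores are close to the lower limit of the list, which is 50. Another pair of regions had no ab3 peak, with 1033 for ab1 and 392.3 for ab2 at 8601 bp downstream and 1474 and 83.2 at 30.5 kb. The latter lies in the UTR of Vangl2, a planar cell polarity gene, 1326 bp from its TSS.

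At Nhlh2 the shared regions had ab1 scores of 53.4 to 932 and ab2 scores of 69.3 to 417, and at Nhlh1 the ranges were 81.8 to 1924 and 56.2 to 757. Its TSS region, chr3:102009586-102010536, was centred 85 bp upstream and had 158 for ab1 and 153 for ab2, the lowest ab1 and ab2 scores among the 7 members with a shared region at the TSS. The region of all 3 antibodies, chr3:102024303-102025745, lay 14.9 kb downstream with 453, 199.8 and 51.8, and its ab3 score exceeded 3.73% of the ab3 peaks. The strongest region, 13.4 kb downstream, had 932 for ab1 and 417 for ab2 and no ab3 peak.

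Nhlh2 served as the positive control of the study's ChIP-PCR, and the primers used there were placed on the genome. They bound 248 bp, chr3:102011813-102012060, from 1667 to 1914 bp downstream of the TSS, in the first intron of the longest transcript and in an exon of other transcripts. The amplicon overlapped a shared region, chr3:102011267-102013442, with 265 for ab1 and 229 for ab2 and no ab3 peak. It contained 1 extended E-box with the core CAGATG. The nearest region of all 3 antibodies was 12.2 kb away. In its ChIP-PCR the study reported amplification from the ChIP DNA of each NEUROD2 antibody, but not from that of a GFP antibody. The lack of a called ab3 peak therefore does not show that ab3 failed to enrich this site.

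Over the 53 shared regions the median ab1 score was 504, with a range of 53.4 to 3199, where the median over all shared regions was 278. For ab2 the median was 245, with a range of 56.2 to 3100, against 140.3. For ab3 the order was the other way round, with a median of 83.0 over 16 regions, a range of 51.8 to 282, and 90.5 over all shared regions. The ab1 median was 1936 in the regions of all 3 antibodies and 376 in those of 2, and the ab2 medians were 872 and 153. The ranges overlapped, since ab1 scores ran from 387 to 3199 in the former and from 53.4 to 3100 in the latter. The log10 scores of ab1 and ab2 had a Pearson correlation of 0.870 over the 53 regions, which share their loci and, in part, their width. The mean number of member regions per antibody was 47.0 ± 27.9 (SD, n = 3 antibodies) from 70, 55 and 16 regions in the order of their numbers, and the antibodies reached 9, 9 and 7 of the loci.

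**Figure D2:**
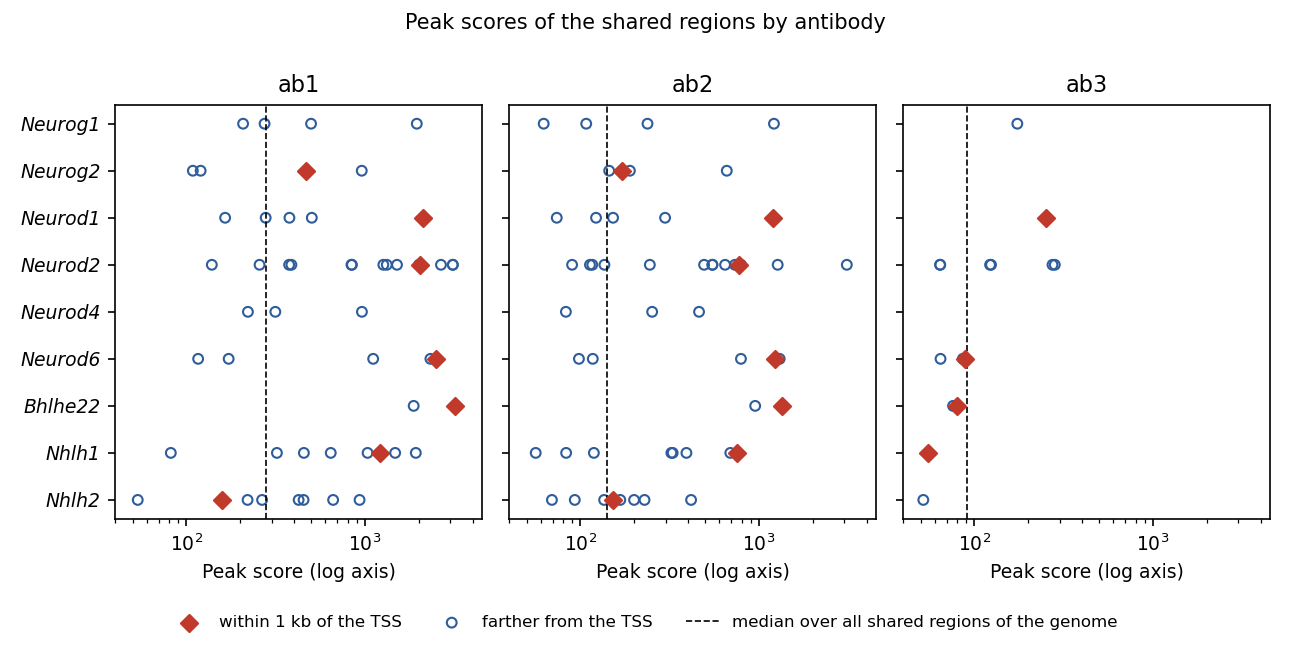
Peak scores of the 53 shared regions by gene, 1 panel per antibody, on a log axis. Diamonds are regions within 1 kb of the TSS, circles are regions farther out, and the dashed line is the median over all shared regions of the genome. Most ab1 values lie right of the line at 278, and 10 of the 16 ab3 values lie left of the line at 90.5.

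The number of shared regions per locus was 14 at Neurod2, 8 at Nhlh1 and at Nhlh2, 5 at Neurod1 and at Neurod6, 4 at Neurog1 and at Neurog2, 3 at Neurod4 and 2 at Bhlhe22. The median was 5, and over all protein-coding genes it was 1. The count at Neurod2 was reached by 289 of the 21938 protein-coding genes and by 15 of the 8924 short ones, and the count at the Nhlh genes by 1169 and 158. In contrast, the count at Bhlhe22 was reached by 10604 protein-coding genes. The order of the members depends on the window and on the antibodies. With 10 kb on either side Nhlh1 and Nhlh2 had 5 shared regions each, Neurod2 had 4 and Neurog1 had 0. Without ab1 or without ab2, Neurod2 had 6, Nhlh2 had 1, and Neurog2 and Neurod4 had 0.

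**Figure D3:**
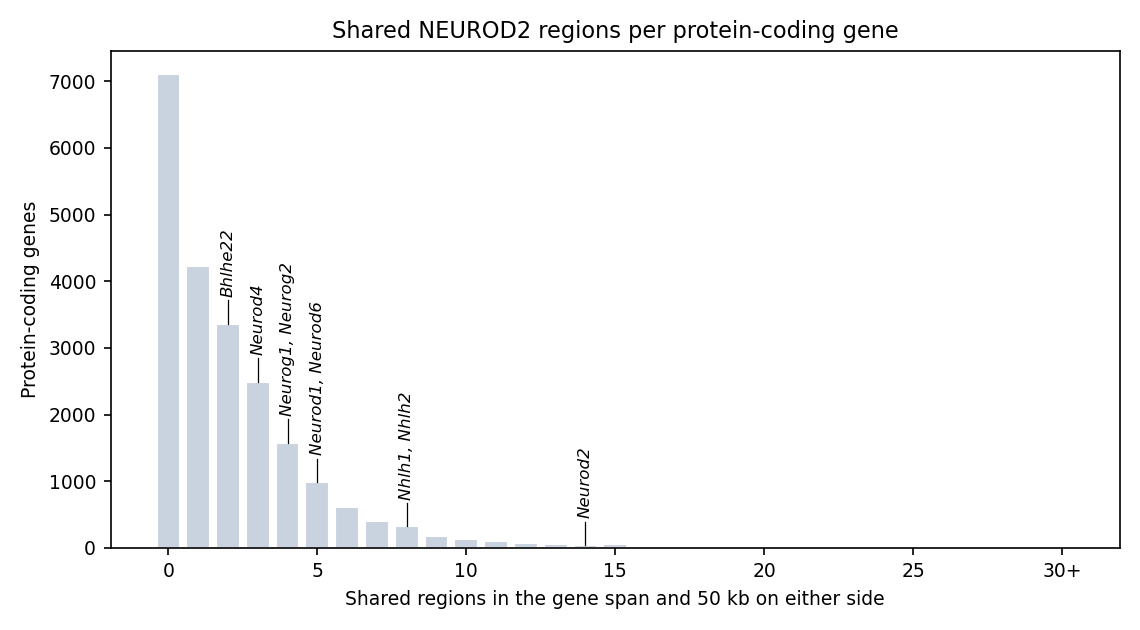
Number of protein-coding genes (vertical axis) by the number of shared regions in their span and 50 kb on either side (horizontal axis, with 30 or more in the last bar). The 9 members are written above the bar of their own count, from 2 at Bhlhe22 to 14 at Neurod2.

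Of the 53 shared regions, 7 lay within 1 kb of a member's TSS and 46, or 86.8%, lay farther out, and 87.3% of all shared regions lay over 1 kb from a protein-coding TSS. In all, 19 lay upstream of the member's TSS and 34 downstream. Midpoints were intergenic in 38, intronic in 12 and exonic in 3. The member's own TSS was the closest protein-coding TSS for 38 of the 53 regions, or 71.7% (57.7 to 83.2%). Regions nearer to another gene were found at Neurod2 with 4, Neurog1 with 3, Nhlh1 with 3, Neurod1 with 2, Nhlh2 with 2 and Neurod4 with 1. The 2 at Neurod1 were nearer to Cerkl, whose TSS lies 34 bp from that of Neurod1, so distance does not settle them. The shared regions were 519 to 5592 bp wide with a median of 1206 bp, against 865 bp over all shared regions. Those within 1 kb of the TSS had a median width of 2695 bp. No single-antibody region lay within 1 kb of a member's TSS, while 3 did so at a neighbour's TSS, all from ab1, with scores of 102 at Stard3, 54.2 at Ppp1r1b and 81.3 at the adjoining starts of Ncstn and Copa.

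The window of 50 kb sets which regions are counted. The outermost shared region inside it lay 47.2 kb past the end of Nhlh2 and had 663 for ab1 and 136 for ab2. The first one outside it lay 50.7 kb from Neurog1 and had 475 for ab1 and 196 for ab2. With 10 kb on either side 25 shared regions were left, and with 100 kb there were 79.

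The extended E-box occurred in the central 200 bp of 28 of the 53 shared regions, or 52.8% (38.6 to 66.7%), against 59.6% of all shared regions. In windows of the same length that start 1000 bp outside either end of the regions, the shares were 28.3% and 22.6%. The study derived this motif from the peaks of these same libraries, so a higher share inside the regions is no independent support for binding. Nhlh2 had the motif in 7 of 8 centres, Nhlh1 in 5 of 8, Neurod2 in 5 of 14, Neurod1 in 4 of 5, Neurod4 in 3 of 3, Neurog1 in 2 of 4, Neurog2 in 1 of 4, Bhlhe22 in 1 of 2 and Neurod6 in 0 of 5. Over whole regions 49 of the 53 held at least 1 extended E-box, and together they held 169, or 2.05 per kb. This was not counted over all shared regions, whose median width is lower, so these values describe the member regions only. The core CAGATG, counted with its reverse complement, lay in 23 of the centres (43.4%), CAGCTG in 14 (26.4%) and CATATG in 6 (11.3%). Here the next base was left out of account. Over all shared regions the shares were close to these, at 43.1%, 28.1% and 11.7%.

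In the 16 regions of all 3 antibodies 6 centres had the motif, or 37.5% (15.2 to 64.6%), and in the 37 regions of 2 antibodies 22 had it, or 59.5% (42.1 to 75.2%). Over the genome the share was 63.4% in regions of all 3 antibodies. The member regions of all 3 antibodies were also wider, with a median of 1471 bp against 1071 bp over the genome, so their central 200 bp is a smaller part of the region. The genome's 63.4% lies inside the interval of the members, and the part of width was not tested. Farther than 1 kb from the TSS the share was 25 of 46, or 54.3%, against 65.3% of such regions in the genome. Within 1 kb it was 3 of 7, or 42.9% (9.9 to 81.6%), against 20.8% of such regions in the genome, which lies in the interval.

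**Figure D4:**
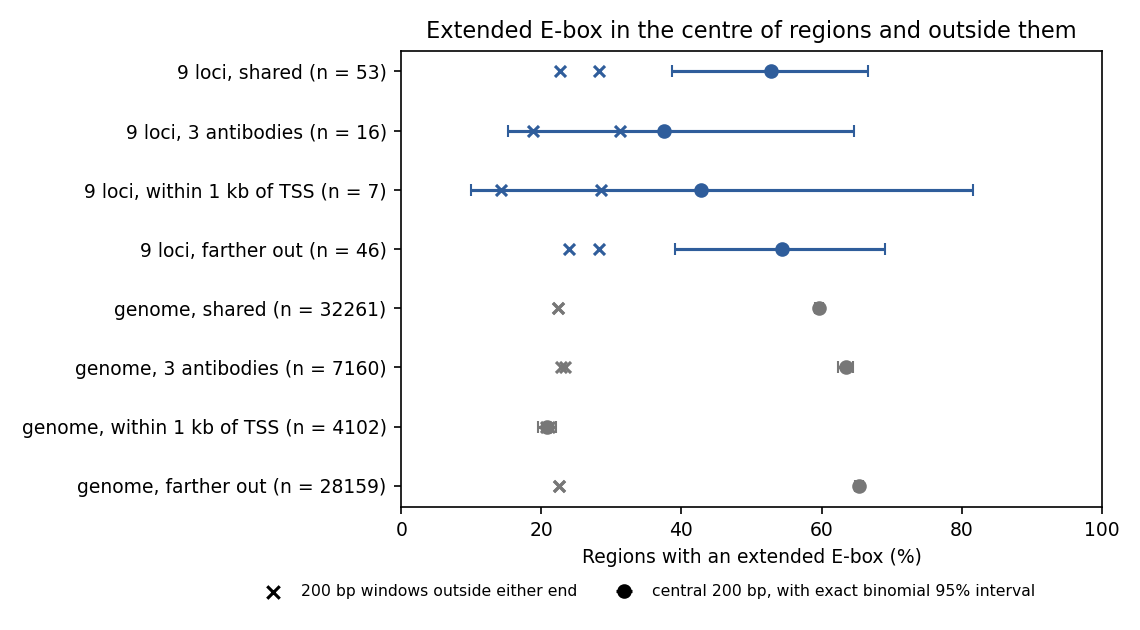
Share of regions with an extended E-box (horizontal axis, percent) in the central 200 bp (circles with exact binomial 95% intervals) and in 200 bp windows outside either end (crosses). The 9 loci are in blue and the genome in grey. The circle of all 53 member regions is at 52.8%, right of both its crosses, and its interval covers the value of 59.6% over the genome.

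The motif was also looked for in the promoters that RefSeq annotates on GRCm38.p6, from 250 bases before to 50 bases after a start. There were 9 entries for 8 members. Of these entries, 5 had an extended E-box, at Neurod1, Neurod2, Neurod4, Nhlh1 and Nhlh2, against 26.3% of the 32851 promoters. Neurod2 had 2, and Neurod4 had 1 in one of its 2 entries. Neurog1, Neurog2 and Neurod6 had none in this window, but the element shown above for Neurod6 lies across the upstream edge of its window.

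The loci of 4 other gene groups were read in the same way, and their windows can overlap, as those of Olig1 and Olig2 do. Over all protein-coding genes 67.6% had a shared region, 26.7% a region of all 3 antibodies, 20.8% a shared region within 1 kb of the TSS and 1.61% all 3 antibodies there. The groups hold genes far longer than the members, with a span of 269160 bp at Tcf12 and 394830 bp at Myt1l, and no share over genes of like length was taken for them. Among 7 genes for E proteins, which are the dimer partners of bHLH factors, and Id proteins, which block them, all 7 had a shared region, 5 had a region of all 3 antibodies, 4 had a shared region within 1 kb of the TSS, and 0 had all 3 antibodies there. Among a fixed list of 17 other bHLH genes, not all of them neural, the counts were 9, 6, 2 and 0. Of these, Atoh1, Atoh7 and Ptf1a had 0 shared regions. A further 12 genes of the neurogenic cascade, among them Pax6, Eomes and Tbr1, had counts of 12, 9, 9 and 3. They include Hes5 and Hes6, which encode bHLH proteins of the Hes family, and Dll3, Hes6 and Myt1l were those with all 3 antibodies at the TSS. Among 5 genes that the study used as non-targets in qPCR, 4 had a shared region within 50 kb, 1 had a region of all 3 antibodies and 0 had a shared region at the TSS. The median number of shared regions was 4 for the E and Id proteins, 1 for the other bHLH genes, 4 for the other cascade genes and 1 for the non-targets, against 5 for the members.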

How the data were processed

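ChIP-Seq of NEUROD2 from E14.5 mouse cortex was read as 3 deposited peak lists, 1 per antibody. Before deposit, the authors aligned single-end reads to mm10 (Bowtie), dropped PCR duplicates and reads that fit several places, and called peaks with MACS for each antibody against a GFP library of the same host species. The deposited score is 10 × −log10 of the MACS p-value, with a lower limit of 50. Nothing was scaled between libraries, so a deeper or cleaner library gives more and higher peaks. The read depth of the libraries was not used here, and the number of peaks stands for the yield of each. The GFP libraries were used by the authors as controls and are not analysed here as data.

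Peaks sharing at least 1 bp were merged. Positions count from 1. Genes were taken from GENCODE release M21 on GRCm38 (mm10) by the transcript with the longest span, for 21938 protein-coding genes on the main chromosomes, and distances run from the TSS to the region midpoint. Sequence came from the RefSeq assembly of the same build. Shares carry exact (Clopper-Pearson) binomial 95% intervals, for counting error only. With 1 library per antibody there are no replicates of a condition, no test was run, and a spread over antibodies is technical and biological at once. Tables were handled in Python (version 3.11.15) with pandas (version 2.3.3) and numpy (version 2.4.6), intervals came from scipy (version 1.17.1), sequence was read with pysam (version 0.24.0), and figures were drawn with matplotlib (version 3.10.9). Merging and motif search were tested on simulated data.

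All 9 members were named. Leading regions, the sequences around their E-boxes and the 4 gene groups followed fixed rules, and the members, rules and lists were chosen with earlier results of these data known. The alternatives were a score of at least 100, an overlap of 50% of the shorter peak, each antibody left out, windows of 10 and 100 kb, other TSS and motif definitions, and a shorter set of genes.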

Additional observations from a re-analysis of the deposited data

How the results depend on the processing

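Each value rests on called peaks of 1 library per antibody, and differences in yield between antibodies cannot be told apart from differences between chromatin preparations. With a score of at least 100, regions of all 3 antibodies were left at 3 loci and at the TSS of 1, and the same counts of 3 and 1 came from peaks above the median score of their own list, an alternative chosen after seeing the data, under which 3500 and 133 of the 21938 protein-coding genes had such regions. Leaving out 1 antibody, with both of the others required, gave 7 to 9 loci with such a region, 4 to 7 with one at the TSS, 4 to 7 with a shared region at the TSS and 16 to 53 shared regions. The shares of protein-coding genes were 26.8% in the window and 1.61% at the TSS without ab1 or without ab2, and 67.6% and 20.7% without ab3. The low ends of the last 2 ranges arise without ab1 or ab2, where ab3 is required. With 10 kb on either side there were 25 shared regions, of which 88.0% had the member as the closest protein-coding gene. Counting genes of every type, the member was closest for 52.8%. The central motif was found in 81.1% with any CANNTG and in 73.6% in 400 bp, and outside the regions in 28.3% and 22.6%. A smaller window or fewer peaks leaves fewer regions by construction, and the cause of the other changes was not tested. The overlap of 50%, the TSS of any transcript and 2 kb around the TSS moved none of these counts by over 1.5 times. Of 74 counts for single genes and gene backgrounds under the alternatives, 33 moved by over 1.5 times. No paired analysis was possible because the GFP samples that carry the same numbers as the NEUROD2 samples served as peak-calling controls, and no result comes from a test.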
